A study of Mus musculus with 9 samples.

Results

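The genes described here encode 9 receptors that monocytes use to sense where to go: the chemokine receptors Ccr1, Ccr2, Cx3cr1 and Cxcr4, the formyl peptide receptors Fpr1 and Fpr2, the complement anaphylatoxin receptors C5ar1 and C3ar1, and the chemerin receptor Cmklr1. They were chosen by name, and each gene was read from the probe set that carries its symbol alone. Of the 9, 8 were measured, each by 1 probe set, among 22180 genes in all. Fpr1 was not analysed here.

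The cells came from the plantar hindpaw of male C57BL/6J mice, 8 weeks old, taken 24 h after an incisional wound. A flow sort kept cells that carry CD11b, an integrin of myeloid cells, and lack Ly6G, a neutrophil protein, and divided them by surface Ly6C into high, medium and low gates with 3 arrays each. All gates come from wounded paws, and blood monocytes or unwounded paws were not analysed here. Nothing in the labels tells whether arrays of the same gate hold RNA of different mice or of pools. The p-values therefore measure only how far these samples spread, and that spread may be technical.

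All of these receptors span the membrane and signal through heterotrimeric G proteins, mainly of the inhibitory Gi class, to the cytoskeleton and to integrins. In the classical scheme, Ly6C high monocytes leave the bone marrow and enter inflamed tissue through CCR2, whereas Ly6C low monocytes and many resident macrophages carry CX3CR1. Formyl peptides from bacteria and damaged mitochondria, and the complement fragments C3a and C5a, act at shorter range inside the tissue. Ligand binding is followed by phosphorylation, arrestin recruitment and internalisation, so the amount of transcript and the amount of receptor at the surface need not match.

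The values are log2 intensities, and a gate's value is the mean over its 3 arrays with the SD. The median over an array was 3.93 to 4.10, and 3 arrays a gate set how precise a value can be. Ly6c2, which encodes the sorted protein, was lower in the low gate on every array, but low replicate 3 (9.40) stood nearer to the other gates than low replicates 1 and 2 (7.69 and 7.90). Itgam, which encodes CD11b, and Lyz2, a lysozyme of myeloid cells, were bright on all arrays, at 10.43 to 11.14 and 12.07 to 12.37. Ly6g was dim, at 2.74 to 4.61, and so were the neutrophil markers Ngp, at 2.93 to 3.30, and Ltf, at 3.46 to 3.76. Other neutrophil markers were brighter. Among them, S100a8 was at 6.49 to 10.37 and S100a9 at 5.61 to 9.42, each highest on low replicate 3. Retnlg was higher in low than in high by 3.91 in log2 (limma adjusted p = 0.00712). Its mean in high was 2.98, below the array medians, so no fold is given. Of the 10 neutrophil markers, Retnlg was higher, Mmp8 and Csf3r were lower and 7 did not pass. The log2 of their summed intensity ranged from 9.51 to 10.29 on high arrays, from 9.93 to 11.18 on medium arrays and from 9.33 to 11.46 on low arrays. The fibroblast markers were not absent: the log2 of their summed intensity over 10 genes ran between 11.62 and 12.75 on high arrays, 9.63 and 9.65 on medium arrays, and 8.71 and 8.92 on low arrays. Col1a2, a collagen chain among them, was at 10.27, 7.26 and 5.74. Resident macrophage markers moved the other way, with a log2 summed intensity over 9 genes of 11.37 to 11.88, 12.10 to 12.74 and 13.48 to 13.89. No marker is at 0 on these arrays, which have a positive floor. In such bulk samples, fewer cells of a type and less RNA per cell cannot be told apart.

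Between the low and high gates, 4 of the 8 receptors differed. Fpr2, Ccr1 and Ccr2 fell in low, and Cx3cr1 rose. The other four (Cxcr4, C5ar1, C3ar1 and Cmklr1) did not pass the test. A gene passed where its limma p, adjusted by Benjamini and Hochberg over all 22180 genes, was under 0.05. Of all genes tested, 5.67% passed in this comparison: 3.35% were higher in low and 2.32% were lower. The same 4 receptors had arrays that did not overlap between low and high, as 20.1% of all genes did (11.4% higher and 8.76% lower in low). The median log2 difference, low minus high, was -0.21 over the 8 receptors and 0.01 over all genes.

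**Figure D1:**
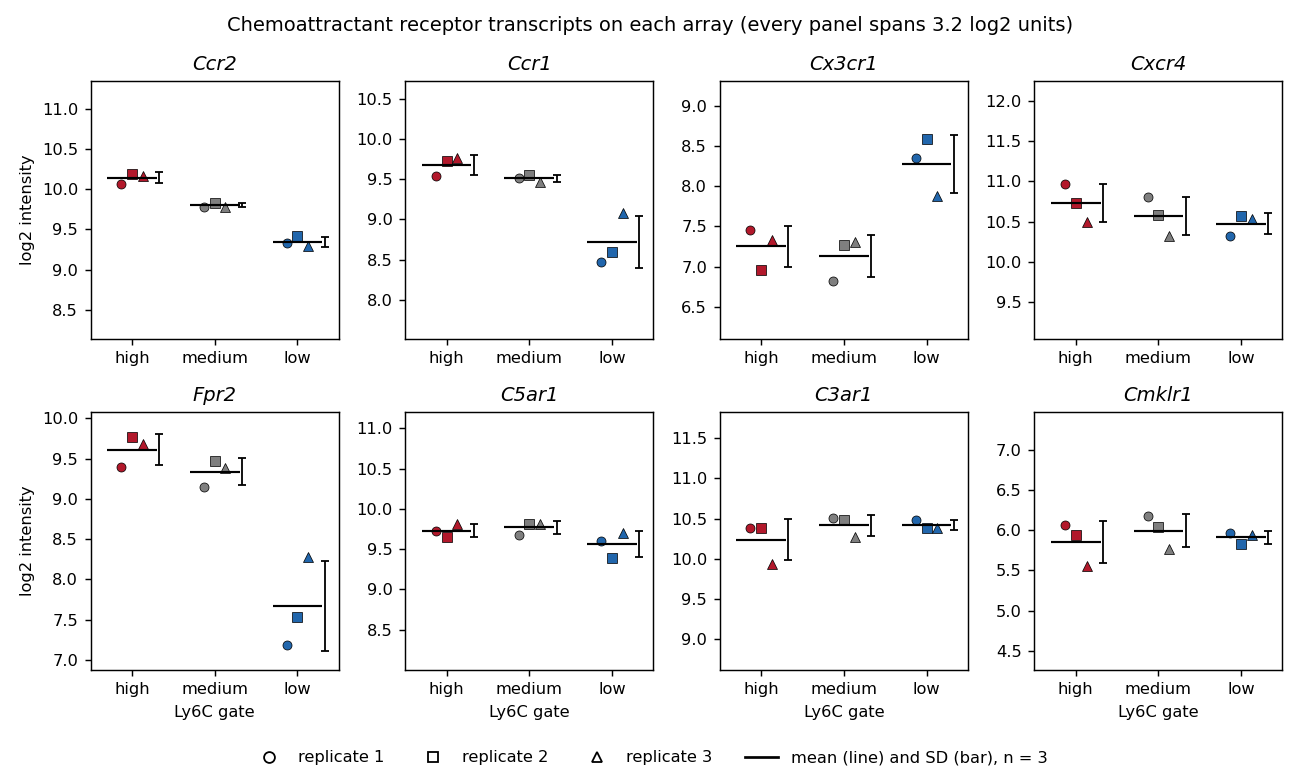
Log2 intensity of the 8 measured receptors on each of the 9 arrays, by Ly6C gate. Symbols mark the replicate number, the horizontal line is the mean and the bar is the SD (n = 3). All panels span the same range of log2 units, so that Fpr2, with 9.61 in high and 7.67 in low, shows the largest step, and C5ar1 and Cmklr1 lie nearly flat.

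Between medium and high, limma passed 0 of the 8 receptors, where 0.239% of all genes passed (0.0406% higher and 0.198% lower in medium). A count of 0 among 8 is near that share. At an unadjusted p under 0.05 there was 1, Ccr2, where 7.53% of all genes had such a p, and without moderation over genes 0 passed. Ccr2 was also the only receptor whose medium and high arrays did not overlap, against 10.7% of all genes (4.93% lower in medium). Between low and medium, the 4 receptors that passed were again Fpr2, Ccr1, Ccr2 and Cx3cr1, where 1.93% of all genes passed (1.38% higher and 0.541% lower in low). Their arrays did not overlap either, as was so for 16.8% of all genes (9.25% higher and 7.58% lower). This comparison shares the low arrays with low versus high, so its calls are not separate support. Its counts were fragile: with 1 array left out it passed 0 to 3 receptors, the highest count being without low replicate 3. It passed 2 without high replicate 1 or 2, 1 without high replicate 3, medium replicate 1 or low replicate 1, and 0 without medium replicate 2 or 3 or low replicate 2.

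**Figure D2:**
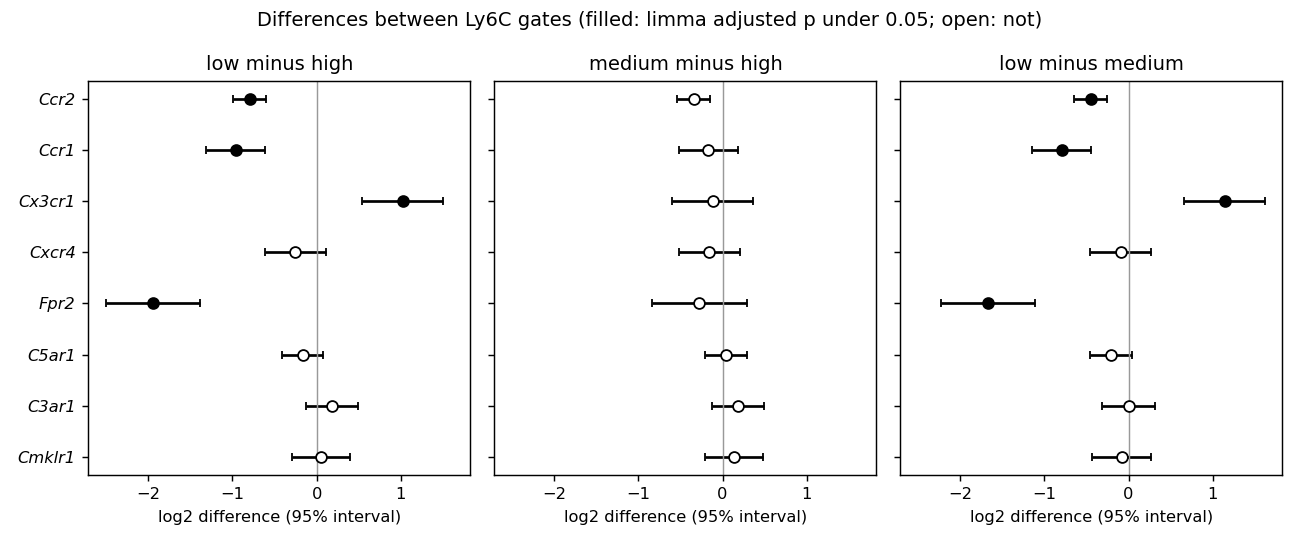
Log2 difference of each receptor with its 95% interval from the limma fit, in the 3 comparisons between gates. Filled points have a limma adjusted p under 0.05. Ccr2, Ccr1, Cx3cr1 and Fpr2 are filled in both comparisons with low, and every point is open between medium and high.

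Ccr2 binds CCL2, CCL7 and CCL12, and mice without it keep their classical monocytes in the bone marrow. It stood at 10.06, 10.19 and 10.16 on the high arrays, 9.78, 9.83 and 9.78 on the medium arrays and 9.33, 9.41 and 9.29 on the low arrays. The gates were ordered high, medium, low with no overlap between any of them. The spread within a gate was small, with SDs of 0.07, 0.03 and 0.06 (n = 3). Ccr2 fell 1.73-fold from high to low (log2 difference -0.79, SE 0.09, limma adjusted p = 0.00178). The step from high to medium was -0.34 (95% interval -0.54 to -0.14), with an adjusted p of 0.310 in limma, past the spread of the arrays but not past the threshold over all genes. The step from medium to low was -0.45 (limma adjusted p = 0.0384). Leaving out any of the 9 arrays ended this call, with an adjusted p as high as 0.123 when low replicate 1 was dropped. Scaling also ended it, at an adjusted p of 0.0814 with quantile normalization repeated and 0.0512 with arrays centred, as did a fit of only the gates compared (0.0737).

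Ccr1 binds CCL3, CCL5, CCL6 and CCL9 and is found on monocytes and neutrophils. Its values were 9.54, 9.73 and 9.77 in high, 9.51, 9.55 and 9.47 in medium, and 8.47, 8.60 and 9.08 in low. High and medium overlapped, and all low arrays lay below both. Ccr1 fell 1.95-fold from high to low (log2 difference -0.96, SE 0.16, limma adjusted p = 0.00904) and was lower in low than in medium by a log2 value of -0.79 (limma adjusted p = 0.0409). Medium minus high was -0.17 (95% interval -0.52 to 0.18). Dropping any of 8 arrays ended the call against medium, with an adjusted p as high as 0.134 when it was low replicate 2, and dropping low replicate 3 did not. Low replicate 3, the array nearest to high in Ly6c2, was also nearest for Ccr1. It was also the highest low array for the neutrophil markers S100a8 (7.25, 8.57 and 10.37) and Cxcr2 (5.08, 5.02 and 7.58). Ly6g was highest on low replicate 2 instead (2.85, 4.61 and 3.28). On the medium arrays, S100a8 was 8.34, 8.82 and 10.07 and Cxcr2 was 5.02, 4.96 and 6.38. Medium replicate 3 was the lowest medium array for Ccr1 and not the highest for Fpr2. The part of neutrophils in the Ccr1 and Fpr2 values was not tested. Without low replicate 3 the Ccr1 difference from high was -1.14. Without moderation over genes, the adjusted p was 0.0550 against high and 0.158 against medium, and with only the gates compared in the fit it was 0.0927 against medium, none of which passed.

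Fpr2 senses formylated peptides, serum amyloid A and annexin A1. It stood at 9.40, 9.76 and 9.68 in high, 9.15, 9.48 and 9.39 in medium, and 7.19, 7.54 and 8.28 in low. High and medium overlapped, and the lowest medium array was well above the highest low array. This was the largest difference among the 8 receptors: Fpr2 fell 3.85-fold from high to low (log2 difference -1.94, SE 0.25, limma adjusted p = 0.00304) and 3.18-fold from medium to low (limma adjusted p = 0.0154). The latter call ended when medium replicate 2, medium replicate 3 or low replicate 2 was dropped (adjusted p as high as 0.0664 for the last), with only the gates compared in the fit (limma, 0.0527) and without moderation (0.117). Medium minus high was -0.28 (95% interval -0.84 to 0.29). Low replicate 3 again stood nearest to high, and without it the difference from high was -2.25. Other genes of the formyl peptide receptor family, Fpr-rs3, Fpr-rs4 and Fpr-rs6, were dim in every gate (means of 4.22, 2.27 and 2.22 in low) and none passed.

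Fpr2 and Ccr1 had the highest correlation of the 28 pairs among the 8 receptors. Over the 9 arrays their Pearson r was 0.99, and with each gate's mean subtracted it was 0.95. These are descriptions over 9 arrays that share gates, and low replicate 3 was the highest low array for both genes. Ccr2 did not share this: with gate means subtracted its r was -0.11 to Ccr1 and -0.03 to Fpr2. The 250 bases before the annotated start of Ccr1 and Fpr2 are shown because these genes fell together, beside those of Cx3cr1, which moved the opposite way. They are RefSeq sequences of GRCm38.p6 at chr9:123968693-123968942 (minus strand), chr17:17887574-17887823 (plus strand) and chr9:120068297-120068546 (minus strand), written 5′ to 3′ along the gene.
Ccr1: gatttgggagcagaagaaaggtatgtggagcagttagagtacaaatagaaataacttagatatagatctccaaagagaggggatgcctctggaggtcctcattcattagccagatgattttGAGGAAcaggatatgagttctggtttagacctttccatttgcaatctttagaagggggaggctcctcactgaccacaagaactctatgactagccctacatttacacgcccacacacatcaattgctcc
Fpr2: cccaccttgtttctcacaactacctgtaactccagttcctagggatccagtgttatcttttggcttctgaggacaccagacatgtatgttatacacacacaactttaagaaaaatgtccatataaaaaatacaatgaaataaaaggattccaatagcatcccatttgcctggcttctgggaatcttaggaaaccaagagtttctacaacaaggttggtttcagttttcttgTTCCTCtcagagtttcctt
Cx3cr1: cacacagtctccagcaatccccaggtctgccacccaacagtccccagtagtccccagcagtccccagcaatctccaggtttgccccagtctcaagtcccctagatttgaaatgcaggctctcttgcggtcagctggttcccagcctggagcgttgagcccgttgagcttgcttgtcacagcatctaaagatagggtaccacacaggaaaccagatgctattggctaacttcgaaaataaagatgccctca
Capitals mark GAGGAA or its reverse complement TTCCTC, a PU.1-type string that contains GGAA, the core of ETS factor sites. The marked string starts 129 bases before the start in Ccr1 and 19 bases before it in Fpr2, and is not in the Cx3cr1 window. The shorter core GGAA was not searched for, and it does occur in the Cx3cr1 window. Among 32851 annotated promoter windows of 250 bases, 23.3% hold the marked string on either strand. All 9 listed receptors have such a window, and GAGGAA was found in those of Ccr1, Fpr2 and Cmklr1. For Cmklr1, Ccr2 and C5ar1, the annotated gene begins 6872, 265 and 202 bases before the start used here. The windows of Cmklr1 and Ccr2 thus lie inside the annotated gene, and that of C5ar1 lies partly inside it. Of 3 further motifs searched on both strands, TGANTCA (AP-1; 6.75% of all windows) was found in C3ar1, and TTGCNNAA (C/EBP; 9.56%) and the paired GAAA element of interferon regulatory factors (2.98%) in none of the 9.

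Cx3cr1 binds fractalkine, CX3CL1, and marks Ly6C low monocytes and many resident macrophages. It was at 7.45, 6.96 and 7.34 in high, 6.82, 7.27 and 7.30 in medium, and 8.35, 8.59 and 7.88 in low. High and medium overlapped, and every low array lay above both. Cx3cr1 rose 2.03-fold from high to low (log2 difference 1.02, SE 0.21, limma adjusted p = 0.0259) and 2.21-fold from medium to low (limma adjusted p = 0.0342). The call against high ended when high replicate 2 or 3 or low replicate 1 or 2 was dropped. The call against medium ended when high replicate 3, any medium array or low replicate 1 or 2 was dropped. Both had their highest adjusted p, 0.0937 and 0.125, when it was low replicate 1. With only the gates compared in the fit, limma gave 0.0656 against high and 0.0719 against medium, and without moderation the values were 0.119 and 0.167. Medium minus high was -0.12 (95% interval -0.60 to 0.36). Low replicate 3 had the lowest Cx3cr1 of its gate, and without it the difference from high was 1.22. The resident macrophage markers rose in the same direction over the gates (8 of 9 in limma between low and high), and their part in the Cx3cr1 difference was not tested.

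Cxcr4 encodes the receptor for CXCL12, which holds leukocytes in the bone marrow. It stood at 10.97, 10.72 and 10.49 in high, 10.80, 10.58 and 10.32 in medium, and 10.32, 10.57 and 10.53 in low. The gates overlapped throughout. Low minus high was -0.25 (95% interval -0.62 to 0.11, limma adjusted p = 0.501). The interval leaves out the falls estimated for Ccr2, Ccr1 and Fpr2. It still overlaps the 95% intervals of Ccr2 (-0.99 to -0.60) and Ccr1 (-1.31 to -0.61). A test of Cxcr4 minus Ccr2 on the same array, given below, did not pass.

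C5ar1 is the receptor for C5a, a strong attractant of phagocytes. Its values were 9.73, 9.66 and 9.81 in high, 9.68, 9.81 and 9.82 in medium, and 9.61, 9.39 and 9.70 in low. The gates overlapped, and the lowest array was low replicate 2. Low minus high was -0.17 (95% interval -0.41 to 0.08, limma adjusted p = 0.520) and low minus medium -0.21 (95% interval -0.45 to 0.04). The interval of low minus high leaves out a fall as large as that of Ccr2, Ccr1 or Fpr2. C5ar2, a second C5a receptor that does not couple to G proteins, had means of 6.29, 6.28 and 6.14 from high to low (limma adjusted p = 0.802 for low versus high).

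C3ar1 is the receptor for C3a. It was at 10.38, 10.38 and 9.94 in high, 10.50, 10.48 and 10.27 in medium, and 10.49, 10.38 and 10.38 in low. The gates overlapped, and high replicate 3 was the lowest array. Low minus high was 0.18 (95% interval -0.13 to 0.49, limma adjusted p = 0.594). The deposited value 10.38 is the same number on 4 arrays, and Cmklr1 and Ccr2 each have a value shared by 2 arrays. Of all probe sets, 43.1% have a value shared by at least 2 arrays and 11.0% by at least 4, and how the equal values arose was not tested.

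Cmklr1 binds chemerin and is found on macrophages, plasmacytoid dendritic cells and natural killer cells. It stood at 6.07, 5.94 and 5.56 in high, 6.17, 6.04 and 5.77 in medium, and 5.97, 5.82 and 5.94 in low. The gates overlapped, and no comparison passed (limma adjusted p = 0.923 for low versus high). Low minus high was 0.06 (95% interval -0.29 to 0.40), and -0.07 with quantile normalization repeated.

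Cmklr1 and C3ar1 varied together within the gates, with an r of 0.94 after each gate's mean was subtracted and 0.89 over the 9 arrays. Cxcr4 followed Cmklr1 in the same way, at 0.81 within gates. In high and in medium, replicate 3 was the lowest array for all 3 of these genes. The mean log2 value of the resident macrophage markers was also lowest on replicate 3 of these gates, at 6.94 against 7.42 and 7.44 in high and 7.76 against 8.55 and 8.77 in medium. In low these markers were lowest on replicate 3 as well (9.93 against 10.23 and 10.17). There Cmklr1 was lowest on replicate 2, Cxcr4 on replicate 1, and C3ar1 had the same lowest value on replicates 2 and 3. The part of resident macrophages in the variation was not tested.

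The difference between a pair of probe sets on the same array is free of any constant added to that array, and its shift between gates shows unequal change. Of the 4 pairs planned, Fpr2 minus Fpr1 could not be computed. Cx3cr1 minus Ccr2 sets a receptor of nonclassical monocytes against a receptor of classical ones. Both receptors had passed between low and high on these same arrays, so this pair is not separate support. The difference was -2.61, -3.23 and -2.83 on the high arrays, -2.96, -2.56 and -2.48 on the medium arrays and -0.98, -0.83 and -1.41 on the low arrays. High and medium overlapped, and all low arrays stood above both. The shift from high to low was 1.82 and that from high to medium 0.22. An exact permutation test of the F statistic over the 3 gates gave p = 0.0179, where the smallest unadjusted p the design allows is 0.00357. After Benjamini-Hochberg adjustment over 3 pairs it was 0.0536, which did not pass 0.05. Cxcr4 minus Ccr2 shifted by 0.54 from high to low (exact permutation p = 0.0714, adjusted 0.107). C3ar1 minus C5ar1 shifted by 0.35 (exact permutation p = 0.229, adjusted 0.229).

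**Figure D3:**
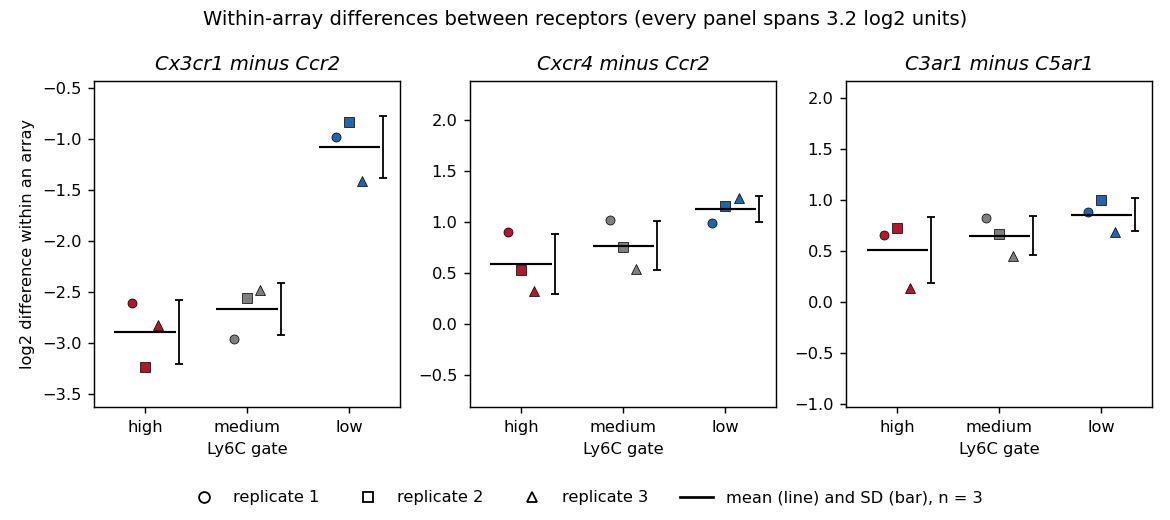
Log2 difference between the probe sets of 2 receptors on the same array, by Ly6C gate, with symbols for the replicate number, a line for the mean and a bar for the SD (n = 3). Cx3cr1 minus Ccr2 is -2.89 and -2.67 in high and medium and -1.07 in low. For Cxcr4 minus Ccr2 the low arrays lie above high but overlap medium, and for C3ar1 minus C5ar1 all gates overlap.

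The genes whose pattern over the 9 arrays was most like that of the 4 receptors that passed were read by Pearson r, among genes with a mean log2 value of at least 6. Such values pool the gates, so any gene that follows the gates scores high. For Ccr1 they were Chil3, a chitinase-like lectin of alternatively activated macrophages, Thbs1 and Arg2 (r = 0.99, 0.99 and 0.98), and for Fpr2 they were Thbs1, Slfn1 and Arg2 (r = 0.99, 0.99 and 0.99). Thbs1 encodes thrombospondin and fell from 12.36 in high to 11.02 in low, and Arg2, a mitochondrial arginase, from 9.93 to 7.80 in mean level. For Ccr2 they were Smchd1, Oas3 and Hp (r = 0.98, 0.98 and 0.98). Hp, which encodes haptoglobin, followed the gradual course of Ccr2, with means of 9.77, 8.47 and 6.79. For Cx3cr1 they were Pip4k2a, Dnajb14 and Rab14 (r = 0.97, 0.97 and 0.97), which encode a lipid kinase, a chaperone and a vesicle GTPase.

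Other attractant receptors were read from a list of 33, of which 28 were measured. Between low and high, 5 were higher, 2 were lower and 21 did not pass. The share that passed was 25%, beside 5.67% of all genes (3.35% higher and 2.32% lower). The median log2 difference was -0.03, beside 0.01 over all genes. Ccr7, which guides dendritic cells to lymph nodes, rose most: 7.0, 5.74 and 6.50 in high, 7.04, 6.49 and 6.63 in medium, and 9.50, 9.35 and 9.59 in low (8.37-fold, limma adjusted p = 0.000902). Gpr183, an oxysterol receptor that positions dendritic cells and B cells, rose 2.46-fold (limma adjusted p = 0.00389). S1pr1, which leads cells toward sphingosine phosphate in lymph, rose 1.96-fold. Ccr3, the eotaxin receptor, was higher in low by 1.39 in log2 from a mean of 4.14 in high, close to the array medians. The files used here hold no detection call, so whether that value is above background was not tested and no fold is given. Cxcr3 was also higher (0.64 in log2, limma adjusted p = 0.0354, and 0.0807 with quantile normalization repeated). It lay outside the naming rule and was added once its values were known. The dendritic cell markers rose in the same arrays, with log2 summed intensities of 8.26 to 8.59, 8.31 to 8.89 and 10.17 to 10.27 over the gates from high to low (3 of 8 higher in limma, Ccr7 among them). Ccr7 makes up much of that sum: over the other 7 genes the values were 7.98 to 8.00, 7.83 to 8.43 and 8.60 to 9.09, with Flt3 and Cd207 higher and 5 not past the threshold. For eosinophil markers, Ccr3 among them, these were 6.35 to 6.54, 6.62 to 7.02 and 7.39 to 7.73, with 3 of 6 higher, and over the 5 without Ccr3 they were 6.08 to 6.15, 6.05 to 6.63 and 6.87 to 7.26, with 2 higher. The part of either cell type in these differences was not tested.

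Ackr3 and Ltb4r1 fell. Ackr3, a scavenger of CXCL12, was at 7.11, 6.61 and 6.24 in high, 6.0, 5.86 and 5.37 in medium and 5.10, 4.98 and 4.91 in low, a 3.16-fold fall between high and low (limma adjusted p = 0.00437). Its order on the high arrays is that of the fibroblast markers, whose mean log2 value was 8.22, 7.69 and 7.20. Endothelial markers had the same order there, with means of 5.63, 5.29 and 5.14. In the other gates the order of the fibroblast markers was not that of Ackr3. Their means were 5.66, 5.46 and 5.61 in medium and 5.17, 4.87 and 5.10 in low. The part of either cell type in Ackr3 was not tested. Ltb4r1, the high-affinity receptor for leukotriene B4, fell 2.46-fold from 8.77 to 7.47 (limma adjusted p = 0.0307), and low replicate 3 (8.16) was again the low array nearest to high. Several calls on this list depended on single arrays. With 1 array dropped, S1pr1 missed the threshold for high replicate 1, low replicate 1 and low replicate 2, and Ccr3 for low replicate 1 (adjusted p = 0.0600 in limma). Ltb4r1 did so for 6 arrays (every high array, medium replicate 1, low replicates 1 and 2), and Cxcr3 for 7 (all but high replicate 2 and medium replicate 3). The highest adjusted p was 0.0635 for S1pr1, 0.101 for Ltb4r1 and 0.119 for Cxcr3, in each case when low replicate 2 was dropped. Against medium, Ccr7 and Gpr183 were higher in low (limma adjusted p = 0.00414 and 0.00555) and 0 were lower, where 1.93% of all genes passed. Between medium and high limma passed 0 of the 28, with 5 at an unadjusted p under 0.05, beside 7.53% of all genes.

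**Figure D4:**
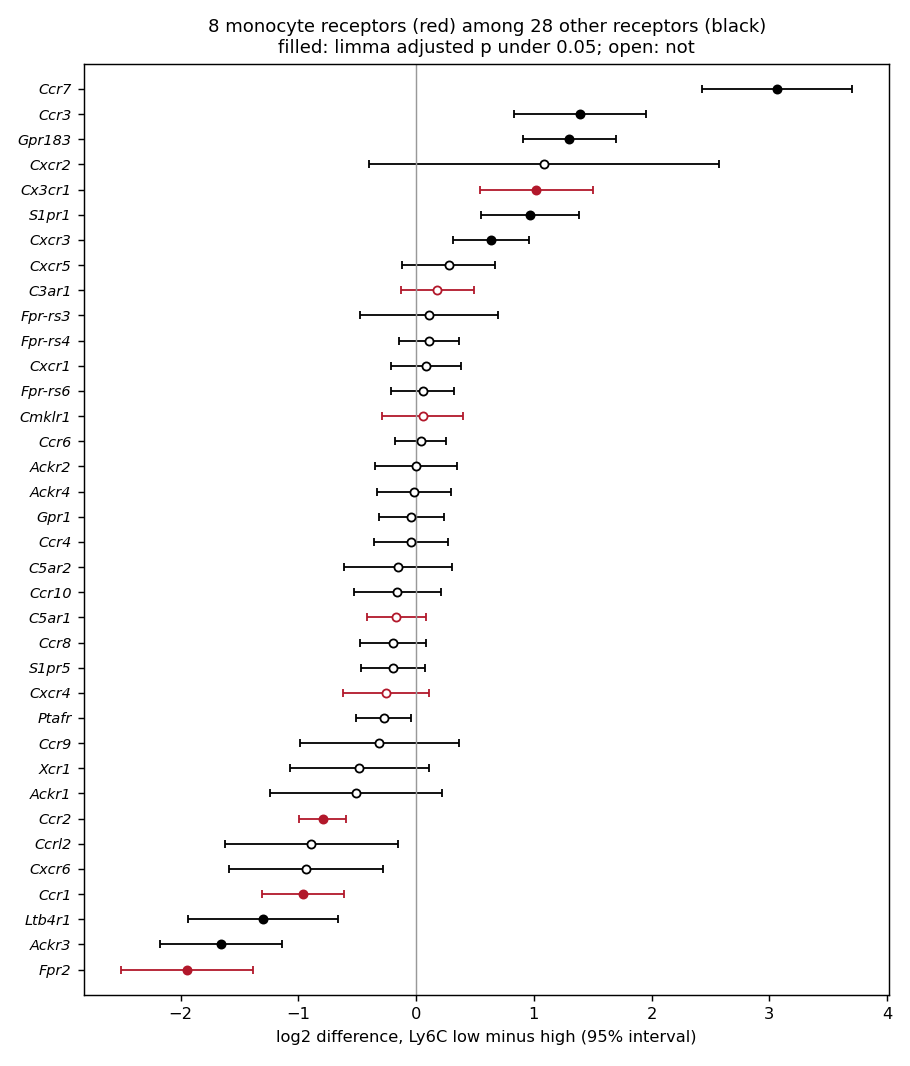
Log2 difference between Ly6C low and high with its 95% interval for the 8 receptors (red) and 28 other attractant receptors (black), in order of size. Filled points have a limma adjusted p under 0.05. Fpr2 has the largest fall at -1.94 and Ccr7 the largest rise at 3.07, and Cx3cr1 is the only red filled point to the right of 0.

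Ccr1 and Ccr2 lie in a run of chemokine receptor genes on mouse chromosome 9, in the RefSeq annotation of GRCm38.p6, where the 6 measured genes stand in the order Ccr9, Cxcr6, Xcr1, Ccr1, Ccr3 and Ccr2. Ccr1 and Ccr2 fell, while Ccr3, which lies between them and was dim in high, was higher in low (log2 difference 1.39, limma adjusted p = 0.0141). Cxcr6, the receptor for CXCL16, differed by -0.93 without passing (limma adjusted p = 0.111). It was dim, with means of 4.73, 4.89 and 3.79 in high, medium and low. Xcr1 and Ccr9 were also dim (4.68 to 5.41 and 3.66 to 4.58 in high) and did not pass. Cx3cr1 is on the same chromosome, outside this run.

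Ligands of the 8 receptors were read from a list of 20, of which 17 were measured. Between low and high, 2 were higher, 2 were lower and 13 did not pass, with a median log2 difference of -0.02. The share that passed was 23.5%, beside 5.67% of all genes (3.35% higher and 2.32% lower). Ccl8 and Ccl7, which encode chemokines that attract monocytes, were higher in low by log2 differences of 2.70 and 0.85 (limma adjusted p = 0.00496 and 0.0156). Ccl8 ranged from 8.07 to 8.95 on high arrays, from 9.13 to 10.82 on medium arrays and from 11.17 to 11.46 on low arrays, and its arrays did not overlap between any of the gates, although medium versus high did not pass (limma adjusted p = 0.362). Ccl2, the main ligand of CCR2, was bright in all gates and nearly equal (11.84, 11.93 and 11.94; limma adjusted p = 0.758 for low versus high). The CCR1 ligands Ccl3, Ccl6 and Ccl9 did not pass either, nor did Cx3cl1, which was dim at 5.03, 4.98 and 5.11. Cxcl12, the ligand of CXCR4 and a product of stromal cells, was 9.57, 8.92 and 8.66 in high, 6.46, 5.77 and 6.68 in medium and 5.99, 6.38 and 6.66 in low. It was lower in low and in medium than in high by -2.70 and -2.74 (limma adjusted p = 0.0018 and 0.0176). It was the only ligand that passed between medium and high, where 0.239% of all genes passed. That call ended when high replicate 2, medium replicate 1 or medium replicate 2 was dropped (adjusted p as high as 0.0968 for medium replicate 1). Of the 10 fibroblast markers, 9 fell between high and low and 6 between high and medium, and their part in the Cxcl12 and Ackr3 differences was not tested. Saa3, which encodes an acute-phase ligand of FPR2, was lower in low by -2.40 with a limma adjusted p of 0.0493, a call that ended when any of 7 arrays was dropped (all but high replicate 2 and medium replicate 1; as high as 0.162 for low replicate 2) and when arrays were centred (0.0515). The Ccl7 call ended when high replicate 2 or low replicate 1 was dropped (as high as 0.0630 for the latter).

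Signalling genes downstream of these receptors were read from a list of 30, of which 29 were measured, and between low and high 1 was higher, 1 was lower and 27 did not pass, with a median log2 difference of 0.06. The 6.90% that passed is near the 5.67% of all genes. Gna15, a G protein subunit that couples many receptors to phospholipase C, was 4.56, 4.45 and 4.5 in high, 5.0, 4.92 and 4.63 in medium and 6.03, 6.79 and 5.86 in low, a log2 difference of 1.73 between high and low from a dim level (limma adjusted p = 0.00304). Its call against medium (limma adjusted p = 0.0189) ended when any medium array or low replicate 1 was dropped (as high as 0.0842 for medium replicate 3). Grk5, a kinase that phosphorylates activated receptors, was 8.16, 8.97 and 9.04 in high, 8.10, 8.2 and 8.10 in medium and 7.35, 7.25 and 7.36 in low, a 2.64-fold fall between high and low (limma adjusted p = 0.00584). Gnai2, the main Gi subunit of leukocytes, was at 10.56, 10.55 and 10.74 (limma adjusted p = 0.550 for low versus high), and the arrestin gene Arrb2 at 9.60, 9.55 and 9.64 (limma adjusted p = 0.958). Between medium and high limma passed 0 of the 29, with 4 at an unadjusted p under 0.05, beside 7.53% of all genes.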

How the data were processed

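RNA of sorted cells was amplified, labelled with biotin and hybridised to Affymetrix arrays, per the labels' protocols. The deposited values are log2 intensities per probe set, made by the authors with RMA per the submitters' processing notes, with version and settings not given in the sources used here. They were used as deposited. Of 41345 probe sets, 23521 had 1 gene symbol, 1814 several and 16010 none in the probe table; the latter groups were left out. Where a gene had several, the probe set of highest mean stood for it, which left 22180 genes; dim genes were kept.

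Gates were compared with limma 3.58.1 in R 4.3.3 (lmFit and eBayes, two-sided) in a single fit of 9 arrays with 6 residual degrees of freedom, Benjamini-Hochberg adjustment over all genes and a threshold of 0.05. Adjusted p-values are from limma unless named otherwise, and intervals are at 95%. Within-array pairs were tested by exact permutation of the F statistic over 1680 assignments. The fit was tested on simulated data, where its share of false calls came out somewhat above the threshold and small changes were missed more often than large ones. The members and lists were chosen with earlier results of these data known. Named genes are all members, up to 4 per direction of each list with the largest difference past the threshold, and the 3 genes most like each member that passed the F test over the gates. Of 159 list entries, 146 were measured. Alternatives covered scaling, probe sets, filters on dim genes, the variance model, a replicate block, the gates fitted and leaving out each array.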

Additional observations from a re-analysis of the deposited data

How the results depend on the processing

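The 8 receptors kept their direction in low versus high under all alternatives run, except Cmklr1, which turned to -0.073 with quantile normalization repeated and ranged from -0.091 to 0.16 as each array was left out. The count of receptors past the threshold there was 4, against 2 without moderation and 3 to 4 with 1 array left out. For low versus medium it was 4, against 1 without moderation, 0 with only the 2 gates compared and 0 to 3 with 1 array left out. For the F test over the gates it was 4, against 1 without moderation and 2 to 4 with 1 array left out. With the replicate number as a block, low versus medium passed 2 receptors, losing Ccr2 (adjusted p = 0.0567 in limma) and Cx3cr1 (0.0536). The numbers were not taken as pairs in the main fit because the labels state no block, and the values below cannot show that pairs are absent. Deviations of same-numbered arrays correlated at -0.0166 to 0.309 (4 of 9 above 0.1), against -0.183 to 0.151 for different numbers (3 of 18). Every pair of replicate 3 arrays was above 0.1. The block gave 1564, 61 and 629 genes for low against high, medium against high and low against medium, where the main fit gave 1258, 53 and 427. Each array was also compared with the 3 arrays of another gate. In 11 of 18 such comparisons the best correlation was at the same number.

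Over all genes, low versus high passed 1258, against 385 without moderation, 644 with only the 2 gates compared and 596 to 1243 with 1 array left out. Medium versus high passed 53, against 0, 1 and 2 to 72. Low versus medium passed 427, against 33, 211 and 119 to 522. The F test passed 888, against 96 without moderation and 342 to 827. The share of calls higher in low than in medium was 71.9%, and 59.9% with quantile normalization repeated. Differences near 0 changed sign. C5ar1 in medium versus high turned to -0.0055 with arrays centred. With 1 array left out, Cx3cr1 in medium versus high ranged from -0.26 to 0.034 and Cmklr1 from -0.0079 to 0.25. In low versus medium, Cxcr4 ranged from -0.22 to 0.023, C3ar1 from -0.075 to 0.043, with -0.035 without low replicate 1, and Cmklr1 from -0.19 to 0.0071. The Cx3cr1 minus Ccr2 shift ranged from 1.65 to 1.99 with exact permutation adjusted p between 0.0214 and 0.0964. The causes of these changes were not tested beyond the fewer arrays of each setting.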
